A study of Rattus norvegicus with 12 samples.

Results

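A group of 10 genes of the prostaglandin pathway was followed in the rat colon. They are 5 enzymes that make prostaglandins (Ptgs1, Ptgs2, Ptges, Ptges2 and Ptgds), the enzyme that inactivates them (Hpgd) and the 4 receptors of prostaglandin E2 (Ptger1, Ptger2, Ptger3 and Ptger4). Every probe named after one of these genes was taken, which gave 12 probes for 10 genes among the 30367 probes of the array (26514 different names), with 2 probes each for Ptgs1 and Ptger3. The study asked what neonatal maternal separation (NMS), an early life stress that leaves rats with lasting visceral hypersensitivity, does to the colon of the adult animal, and what VSL#3, a mixture of probiotic bacteria, does in turn. All 12 animals were male Wistar rats. Group C (4 rats, C1 to C4) was not separated and received placebo, Group M (4 rats, M5 to M8) was kept apart from the dam for 180 min a day between day 2 and day 14 and received placebo, and Group D (4 rats, D9 to D12) was kept apart likewise and received VSL#3 between day 3 and day 60. Every rat, controls included, underwent colorectal distension (CRD) before a segment of colon near the anus was taken on day 60, so the values are those of a mixed tissue after distension.

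Prostaglandins are made from arachidonic acid, which phospholipases release from membranes. The cyclooxygenases Ptgs1, present in most tissues at all times, and Ptgs2, switched on by cytokines and tissue stress, turn it into prostaglandin H2, and terminal synthases such as Ptges (microsomal, inducible) and Ptges2 turn that into prostaglandin E2, while Ptgds makes prostaglandin D2. In the gut, prostaglandin E2 supports the epithelium and the mucosal blood flow and also sensitises sensory nerves. It acts through Ptger1, which raises cellular calcium, Ptger2 and Ptger4, which raise cyclic AMP, and Ptger3, which mostly lowers it. Hpgd, a dehydrogenase abundant in the colonic epithelium, ends the signal.

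A probe of the array is a run of 60 bases taken from the transcript, and 3 are printed: that of Ptgs2, which stood farthest from the controls, and, beside it, those of 2 members that hardly differed between the groups. The Ptgs2 probe lies at chr13:64432919-64432978 on the plus strand (build rn4). In the reading frame that holds no stop triplet inside the probe, it closes on a stop triplet, in capitals. The second Ptgs1 probe (chr3:15350683-15350742, plus strand) and the Ptger4 probe (chr2:54423296-54423355, minus strand) did not end on a stop triplet.
Ptgs2: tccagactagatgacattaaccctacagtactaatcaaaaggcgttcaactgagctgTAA
Ptgs1, second probe: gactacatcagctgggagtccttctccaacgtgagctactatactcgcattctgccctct
Ptger4: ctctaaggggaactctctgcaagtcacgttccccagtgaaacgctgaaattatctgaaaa

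The other probes are given by position in rn4 alone. The main Ptgs1 probe lies at chr3:15365115-15365174 on the plus strand, Ptges at chr3:9946741-9946800 on the minus strand and Ptges2 at chr3:11526212-11526271 on the plus strand. The Ptgds probe spans chr3:3633310-3633779 on the minus strand, that is 470 bases for a probe of 60, so its bases are not contiguous in the genome. Hpgd lies at chr16:37420061-37420120 on the minus strand, Ptger1 at chr19:26160729-26160788 on the minus strand and Ptger2 at chr15:20889441-20889500 on the plus strand. The 2 Ptger3 probes lie at chr2:255719678-255719737 and chr2:255759143-255759202 on the plus strand. Whether a probe lies in coding sequence or in an untranslated end was not determined, since no gene models of this build were used.

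The start of Ptgs2 is shown because it is the inducible member and stood farthest from the controls. RefSeq's table (build GRCr8) held the promoter of 9 of the 10 genes, all but Ptges2. The 250 bases before the Ptgs2 start, chr13:64713813-64714062 on the plus strand, hold an E-box, CACGTG, 55 bases before the start and a match to the C/EBP motif TTNNGCAAT 140 bases before it, both in capitals.
Ptgs2 promoter: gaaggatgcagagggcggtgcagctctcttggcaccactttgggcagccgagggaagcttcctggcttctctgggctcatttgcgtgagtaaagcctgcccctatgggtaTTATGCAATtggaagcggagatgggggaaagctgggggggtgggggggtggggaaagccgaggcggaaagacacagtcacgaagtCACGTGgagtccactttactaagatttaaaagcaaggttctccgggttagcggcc

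Both strands were searched. The E-box was present in 5.59% and the C/EBP motif in 2.04% of 33469 promoters of the same length, and among the 9 members Ptgs2 alone held either. The GC box GGGCGG was present in 6 of the 9 (Ptgs2, Ptges, Ptgds, Hpgd, Ptger1 and Ptger3) against 30.5% of all promoters. None of the 9 held TATAAA (12.9% of all), TGACGTCA, the cAMP response element (1.59%), or the NF-kB motif (4.24%). These matches describe letters within the 250 bases and say nothing about which factors were bound.

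A level is the log2 signal of a probe relative to its array, on which 0 stands for the 75th percentile of all probes and a step of 1 for a doubling. Since probes differ in brightness, a level is compared between rats and not between genes. The 75th percentile itself was between 1434 and 1950 units of signal on the 12 arrays, and 75.3% to 77.4% of spots were well above background. The colon was recognised by its markers: 8 of 8 enterocyte markers and 7 of 7 smooth muscle markers were well above background on every array, while Krt13 and Dsg3 of the squamous epithelium list were on none. Groups C and M shared 1 slide and Group D was on another, so in both comparisons with Group D an effect of slide and one of group cannot be told apart. On the shared slide the groups lay in different rows, and row and group cannot be told apart for Group M vs Group C.

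Some rats stood apart from their group before any test. The study's methods analysed 11 arrays, and rat D12 was left out of the main comparison here for that reason. It differed from the mean of Group C by at least 2-fold in 3875 probes, against 815 to 1154 for D9 to D11. Within Group M the same count was 1235 for M6 and 2632 to 4383 for the other 3 rats, and within Group C it was highest, at 1668, for C2. Results are therefore given with and without these rats where it matters. All 10 genes are drawn rat by rat in the plot of values by group.

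**Figure D1:**
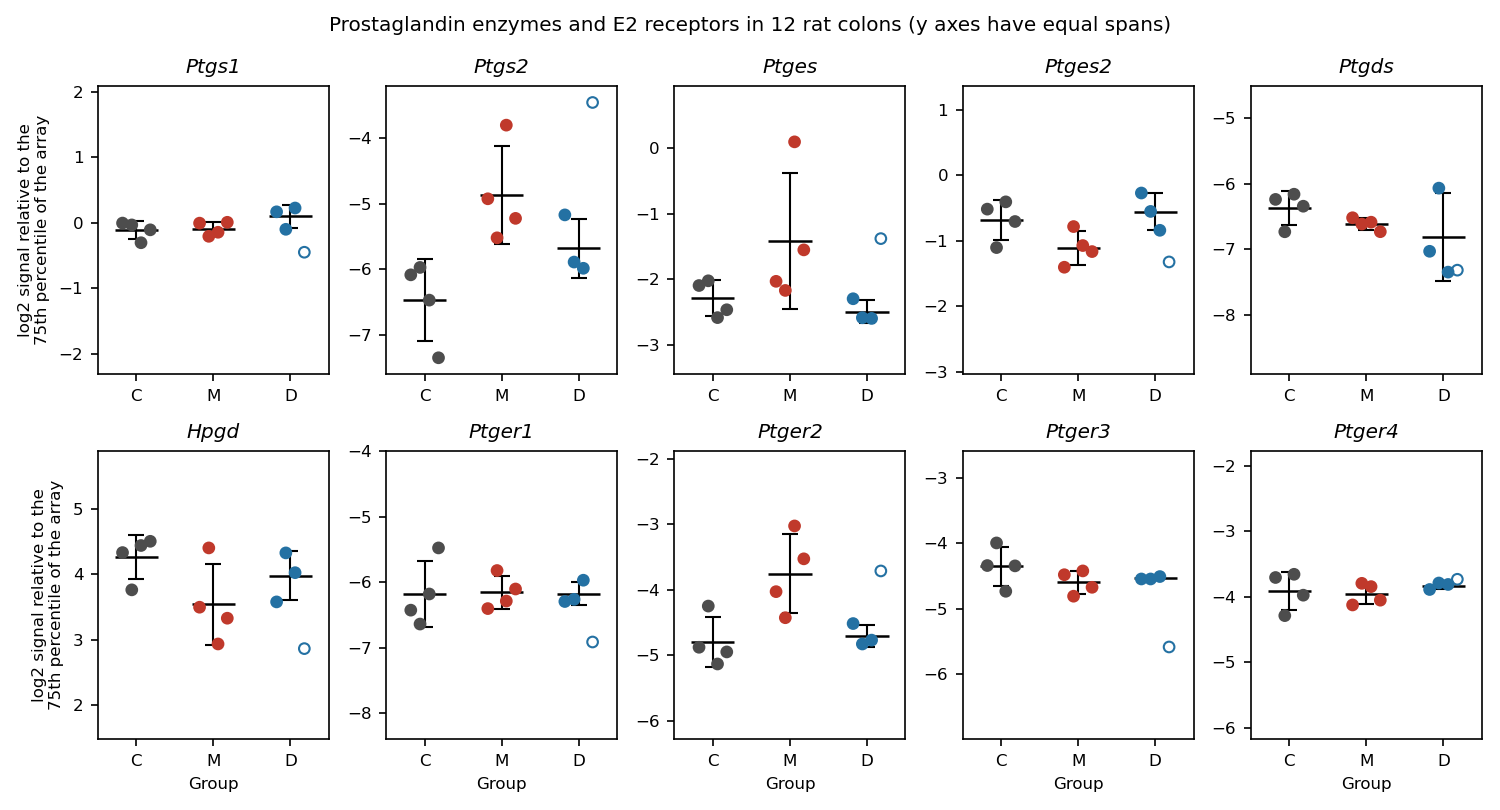
Level of the 10 genes in the 12 rats, as log2 signal relative to the 75th percentile of the array, by Group C, M and D. Each point is 1 rat, the hollow point is rat D12, and the bars give the mean and the SD without D12. The 4 Group M rats are above all Group C rats for Ptgs2, from -5.52 to -3.80 against -7.35 to -5.97, while Ptgs1 and Ptger4 hardly differ between groups.

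In Group M vs Group C, the comparison that asks what NMS does, the inducible cyclooxygenase Ptgs2 was 3.04-fold and the prostaglandin E2 receptor Ptger2 2.07-fold higher after separation. Hpgd, which breaks prostaglandins down, was 1.65-fold lower. The constitutive cyclooxygenase Ptgs1 and the receptor Ptger4 differed by 1.02-fold and 1.03-fold. None of the 10 genes passed an adjusted p of 0.05 (limma, adjusted over all probes), against 0.207% of the 30367 probes. At an unadjusted p of 0.05, 2 members were higher (9.86% of all probes) and 1 was lower (12.9%), or 3 of 10 against 22.7% of all probes, a share near the background. The criterion of the study's methods, which asks for an unadjusted p of 0.05 in an analysis of variance and in a Tukey test together with a 2-fold difference, was met by Ptgs2 and Ptger2, and by 1.37% of all probes in that direction. With D12 in the fit Ptgs2 no longer met it. Both genes are on the study's list of pain genes, which was chosen on these same samples, so meeting the criterion is not independent evidence.

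Ptgs2 catalyses the committed step of prostaglandin synthesis where inflammation or injury has switched it on. Its level was -6.08, -5.97, -6.47 and -7.35 in rats C1 to C4 and -4.92, -5.52, -3.80 and -5.22 in rats M5 to M8. The highest rat was M7 and the lowest C4, and the groups did not overlap, as held for 4.07% of all probes in this direction. The difference was 1.60 ± 0.41 (SE, log2), with a 95% interval from 0.70 to 2.51. Its adjusted p was 0.101 by limma, and the exact two-sided permutation test gave 0.0286, the smallest p that 4 against 4 rats allow. Under the background model normexp, whose offset of 50 compresses dim probes by construction, the same difference was 0.53 with an adjusted p of 0.0776. Without rat M6, the Group M rat nearest to the controls, whose removal widens the difference by construction, it was 1.82 and passed, with an adjusted p of 0.0234 by limma, as did 16.2% of all probes without M6. Without M7, the highest Group M rat, it was 1.25 (adjusted p 0.194, limma). Of the Group C arrays, 3 of 4 were well above background for this probe and all arrays of the other groups were.

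Ptges, the microsomal synthase that is induced together with Ptgs2, was at -2.10, -2.02, -2.59 and -2.46 in Group C. In Group M it was at -2.03, -2.17, 0.10 and -1.55. Rat M7 alone stood far above the rest, and M5 and M6 lay within the Group C range. The difference was 0.88 ± 0.42, with an adjusted p of 0.249 by limma, and 0.38 without M7. Ptges2, the second prostaglandin E2 synthase, was on the other side: it was -0.52, -1.10, -0.41 and -0.71 in Group C and -1.40, -0.78, -1.07 and -1.16 in Group M, a difference of -0.42 ± 0.19 (adjusted p 0.220, limma). C2 lay among the Group M rats and M6 among the Group C rats.

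Ptgs1 was the steadiest enzyme. Its main probe, bright on all arrays, was at 0.00, -0.03, -0.30 and -0.11 in Group C and at 0.00, -0.21, -0.14 and 0.01 in Group M. The difference of 0.03 ± 0.11 had a 95% interval from -0.22 to 0.27, and the second, dimmer probe (-5.12, -4.84, -4.84 and -4.93 against -5.03, -5.09, -5.06 and -5.04) gave -0.12 ± 0.12, from -0.39 to 0.14. Ptgds, the prostaglandin D2 synthase, was near background: 3 of 4 Group C arrays and 2 of 4 Group M arrays were well above it, the rats ranged from -6.73 to -6.16 and from -6.73 to -6.52, and the difference of -0.24 ± 0.24 was within the spread.

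Hpgd was at 4.33, 3.76, 4.44 and 4.50 in rats C1 to C4. In rats M5 to M8 it was at 3.50, 4.40, 2.94 and 3.33. M5, M7 and M8 were below every Group C rat, while M6 lay among the controls, and C2 was the lowest control. The difference was -0.72 ± 0.30 with a 95% interval from -1.39 to -0.04, an adjusted p of 0.197 by limma and 0.0857 by the exact permutation test. Without M6 it was -1.005 and passed (adjusted p 0.0247, limma), as did 16.2% of all probes without M6. Without M7 it was -0.52 (adjusted p 0.435, limma). Hpgd was lowest in M7, the rat in which Ptgs2, Ptges and Ptger2 of Group M were highest.

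**Figure D2:**
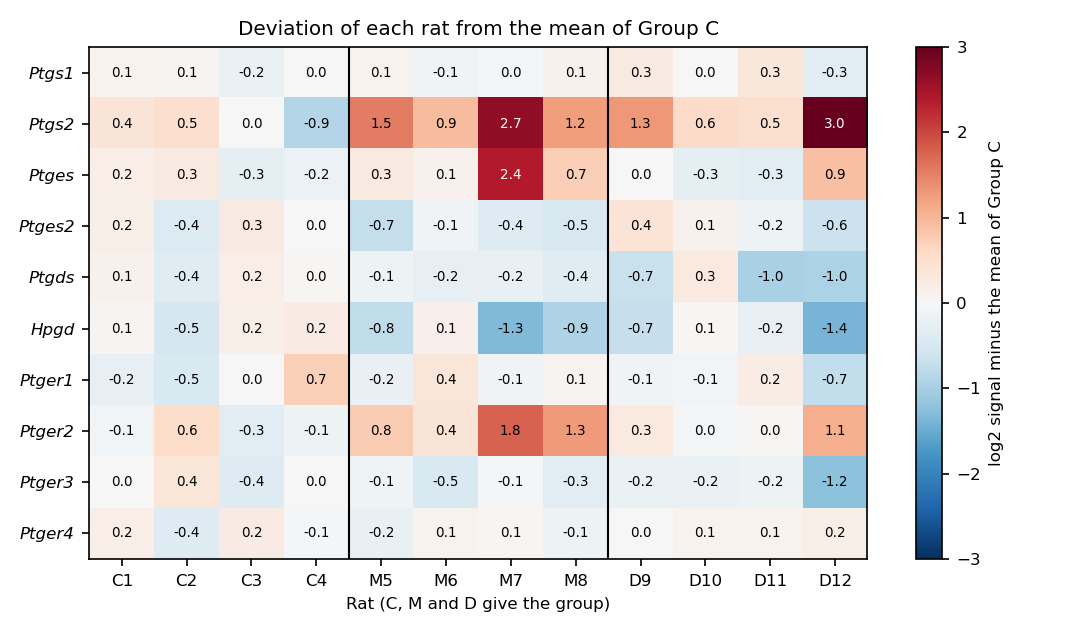
Deviation of each rat (columns) from the mean of Group C for each of the 10 genes (rows), in log2 units, red above and blue below. In M7, 3 genes exceeded the control mean by 2-fold or more and 1 was as far below it, in M6 there were none, and in D12 there were 2 on either side.

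Of the 4 receptors, Ptger2, which couples to cyclic AMP, differed most. It was at -4.88, -4.25, -5.14 and -4.95 in Group C and at -4.03, -4.43, -3.03 and -3.53 in Group M. M5, M7 and M8 were above all controls, and M6 lay below C2. The difference of 1.05 ± 0.29 (95% interval 0.41 to 1.70) had an adjusted p of 0.109 by limma and 0.0571 by the exact permutation test, and it was 0.57 under normexp. Without M6 it was 1.27 and passed (adjusted p 0.0175, limma), as did 16.2% of all probes without M6. Without M7 it was 0.81, less than 2-fold (adjusted p 0.222, limma). Ptger4, the other receptor of that coupling, was between -4.29 and -3.66 in Group C and between -4.13 and -3.80 in Group M. Its difference was -0.05 ± 0.15, and the 95% interval from -0.37 to 0.28 leaves out a 2-fold difference in either direction.

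Ptger3, the inhibitory receptor, was measured by 2 probes that disagreed in sign. The brighter one was at -4.34, -4.00, -4.73 and -4.35 in Group C and at -4.48, -4.81, -4.42 and -4.67 in Group M, a difference of -0.24 ± 0.15, and the dimmer one, at -5.20, -4.64, -5.51 and -5.30 against -5.19, -4.19, -5.36 and -5.63, gave 0.07 ± 0.30. Ptger1, the calcium-coupled receptor, was dim, well above background on 3 of 4 Group C arrays and 4 of 4 Group M arrays, and ranged from -6.63 to -5.47 in Group C and from -6.40 to -5.82 in Group M. Its difference was 0.03 ± 0.24. Over the 10 genes, 5 differences were above 0 and 5 below, with a median of -0.01, as over all probes, where the median was also -0.01 and 47.4% were above 0.

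**Figure D3:**
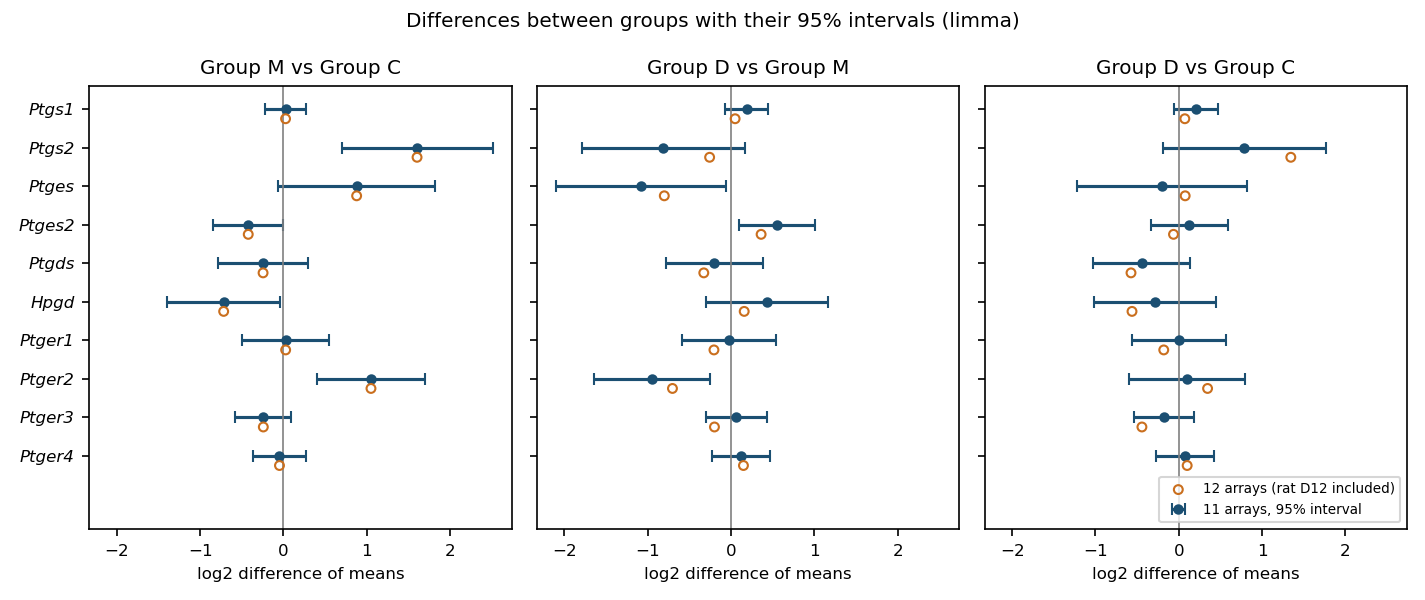
Log2 difference of the group means for each of the 10 genes in the 3 comparisons, 1 panel each. Filled points with bars are the 11-array values with their 95% intervals (limma), and hollow points are the values with rat D12 included. In Group M vs Group C the interval for Ptgs2 runs from 0.70 to 2.51 and that for Ptger2 from 0.41 to 1.70, and no gene passed the adjusted threshold in any panel.

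In Group D vs Group M, the comparison that asks what VSL#3 does in separated rats, several differences had the opposite sign. Ptges was 2.11-fold, Ptger2 1.93-fold and Ptgs2 1.76-fold lower in rats D9 to D11, and Ptges2 was 1.47-fold higher. No member passed the adjusted threshold, as 0.161% of all probes did. At an unadjusted p of 0.05, 1 was higher (11.8% of all probes) and 2 lower (9.85%), and none met the criterion of the methods, as 2.65% of all probes did. The 2 genes lower without overlap, Ptges and Ptger2, compare with 6.89% of all probes. With all 12 arrays no member passed either, in Group M vs Group C (0.0395% of all probes), Group D vs Group M (0.0132%) or Group D vs Group C (0.00659%). Group M is shared with the comparison before, so a value that was high in Group M favours the opposite sign here.

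Ptger2 was at -4.52, -4.83 and -4.77 in rats D9 to D11, all below the lowest Group M rat at -4.43. The difference was -0.95 ± 0.31 (adjusted p 0.136, limma; exact permutation p 0.0571). Rat D12 was at -3.72, among the Group M rats, and with it the difference was -0.70. Without M6 it was -1.18 and passed (adjusted p 0.0269, limma), as did 15% of all probes. Without M7 it was -0.71 (adjusted p 0.256, limma). Ptges was at -2.30, -2.59 and -2.60, below M6 at -2.17, a difference of -1.08 ± 0.46 (adjusted p 0.207, limma). D12, at -1.38, was above 3 of the 4 Group M rats, and without M7 the difference was -0.58.

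Ptgs2 was at -5.17, -5.89 and -5.98 in rats D9 to D11 and at -3.45 in D12, the highest of all 12 rats. D9 lay within the Group M range and D10 and D11 below it. Without D12 the difference from Group M was -0.82 ± 0.44 (adjusted p 0.311, limma), with D12 it was -0.26, and without M7 it was -0.46, so that its size moved with single animals. Ptges2 was at -0.27, -0.55 and -0.84 in D9 to D11 and at -1.32 in D12. The difference from Group M was 0.55 ± 0.21 (adjusted p 0.164, limma), and 0.36 with D12.

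Hpgd was at 3.58, 4.33 and 4.02 in D9 to D11 and at 2.86 in D12, the lowest of all 12 rats. The difference from Group M was 0.44 ± 0.33 without D12 and 0.16 with it. It was 0.72 without M6, 0.23 without M7 and 0.26 without D10. Ptgs1 was at 0.17, -0.10 and 0.23, with D12 at -0.45, and its difference was 0.19 ± 0.12. Ptger4 lay between -3.89 and -3.73 in all 4 Group D rats, a difference of 0.12 ± 0.16 without D12. Ptger3 was at -4.55, -4.54 and -4.51 in D9 to D11 and at -5.58 in D12, the lowest of all rats. Ptger1 (-6.29, -6.26 and -5.97, with D12 at -6.91) and Ptgds (-7.03, -6.07 and -7.35, with D12 at -7.32, and well above background on 1 of 4 arrays) did not differ from Group M beyond their spread, with differences of -0.02 ± 0.25 and -0.20 ± 0.26.

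In Group D vs Group C, which asks whether treated rats differ from rats never separated, no member passed the adjusted threshold (0.00659% of all probes did), none had an unadjusted p of 0.05 or less (5.98% of all probes), and none was without overlap (7.6%). The largest difference was that of Ptgs2, at 0.79 ± 0.44, with a 95% interval from -0.19 to 1.77. D9 and D10 were above all Group C rats and D11, at -5.98, was just below C2. With D12 the difference was 1.35, the adjusted p 0.708 by limma and the exact permutation p 0.0571. On all 12 arrays 2 members had an unadjusted p of 0.05 or less by limma, Ptgs2 (0.0364) and Ptgds (0.0436, difference -0.57), against 6.78% of all probes. Ptger2 differed by 0.10 ± 0.31, Ptges by -0.20 ± 0.46 and Hpgd by -0.28 ± 0.33. These intervals are wide: that for Ptger2 ran from -0.60 to 0.79, which does not leave out a difference of 1.5-fold. The order of the group means was C, D, M from low to high for Ptgs2 and Ptger2 and M, D, C for Hpgd. Rats D9 to D11 overlapped both neighbours in each case except Group M for Ptger2. By the brightest probe, Group D was also in the middle for Ptger1 and Ptger3. For the remaining members it was at an end: lowest for Ptges and Ptgds, and highest for Ptges2, Ptgs1 and Ptger4.

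The other genes of the pathway were taken from a list of 44 on the array, each read by its brightest probe. None passed the adjusted threshold in any comparison. At an unadjusted p of 0.05, 8 were higher (9.86% of all probes) and 3 lower (12.9%) in Group M vs Group C, so that the 11 of 44 were near the 22.7% of all probes. In Group D vs Group M 3 were higher (11.8%) and 12 lower (9.85%), and in Group D vs Group C 1 was higher (5.98% of all probes in either direction).

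Among 10 phospholipases, which free the arachidonic acid that Ptgs1 and Ptgs2 use, 1 was higher and 2 were lower in Group M vs Group C at an unadjusted p of 0.05, near the 22.7% of all probes. Pla2g4c, a membrane-bound cytosolic phospholipase, was at -6.39, -5.24, -4.11 and -4.92 in Group C and at -1.77, -5.28, -2.12 and -2.24 in Group M, where M6 again lay with the controls. The difference was 2.31 ± 0.89 (adjusted p 0.166, limma). The secreted Pla2g10 and Pla2g2f had differences of -0.58 ± 0.19 and -0.65 ± 0.27. In Group D vs Group M the secreted Pla2g2a and Pla2g2d had differences of -1.65 ± 0.61 and -2.10 ± 0.90, and Pla2g5 and Pla2g10 of 0.53 ± 0.21 and 0.52 ± 0.21. With D12, the highest of all rats for Pla2g2d at 0.82, the difference for Pla2g2d was -1.18 and that for Pla2g10 was 0.22, neither at an unadjusted p of 0.05. Pla2g5 was also the 1 gene above the threshold in Group D vs Group C, at 0.61 ± 0.21 (adjusted p 0.754, limma).

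Of the 6 other prostanoid synthases, Ptges3, the cytosolic prostaglandin E synthase and a co-chaperone of heat shock proteins, was higher in every Group M rat (2.79 to 3.15) than in any Group C rat (2.59 to 2.76), as were 4.07% of all probes. The difference was 0.31 ± 0.10 with an adjusted p of 0.122 by limma. In D9 to D11 Ptges3 was between 2.67 and 2.77, below all Group M rats, as were 6.89% of all probes. D12 was at 3.16, above all Group M rats, and with it the difference from Group M went from -0.27 to -0.16. Akr1c18 was well above background in D12 alone of the 12 rats. Of the 5 other prostanoid receptors, none had an unadjusted p of 0.05 in Group M vs Group C. In Group D vs Group M the prostacyclin receptor Ptgir was lower by a difference of -0.23 ± 0.10 and the thromboxane receptor Tbxa2r higher by 0.55 ± 0.21. Both were without overlap, as held for 6.89% of all probes in the lower and 9.06% in the higher direction. Ptgfr was well above background on none of the arrays. None of the 6 genes of transport and breakdown, such as the prostaglandin transporter Slco2a1, was at that threshold in any comparison, with differences between -0.33 and 0.06 in Group M vs Group C.

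Of 10 genes of the leukotriene and lipoxygenase branch, which uses the same arachidonic acid, Lta4h, the leukotriene A4 hydrolase, was lower in every Group M rat than in any control (-0.95 to -0.17 against -0.09 to 0.12), as were 5.17% of all probes. The difference was -0.48 ± 0.16 with an adjusted p of 0.130 by limma. The leukotriene receptor Cysltr2 was well above background on 1 array of Group M, that of M5, and on no control array. With each control raised to at least the lowest level well above background on its array, the mean of Group M was 1.18-fold higher. That mean includes M6, M7 and M8, which were not well above background, so the value is no lower bound. In Group D vs Group M, Alox15 differed by -0.82 ± 0.32. The leukotriene B4 receptor Ltb4r was well above background on 3 of 4 Group M arrays and on none of D9 to D11. With D9 to D11 raised likewise it was 1.80-fold lower. The mean of Group M includes M6, which was not well above background. Ltb4r2 and Cysltr1 stayed near background throughout.

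The 5 cytokine genes on the list, those of ligands known to switch on Ptgs2 and Ptges and of the antagonist Il1rn, had differences between 0.01 and 2.01 in Group M vs Group C. At an unadjusted p of 0.05 were 3 of them, against 22.7% of all probes. Il1b was at -2.21, -1.20, -1.99 and -2.32 in Group C and at -1.08, -1.94, 1.18 and -0.85 in Group M, with M7 highest and M6 among the controls, a difference of 1.26 ± 0.55 (adjusted p 0.206, limma). Il6 was well above background on 1 array of Group M, that of M7, its highest rat, and on no control array. In Group D it was so in D12, at -4.88 against -4.56 in M7, and in none of D9 to D11. With each control raised to at least the lowest level well above background on its array, the mean of Group M was 2.13-fold higher. That mean includes M5, M6 and M8, which were not well above background, so the value is no lower bound. Il1rn differed by 1.95 ± 0.70 and Tnf by 1.02 ± 0.56. In Group D vs Group M the 5 differences were between -1.93 and -0.26, with -1.64 ± 0.61 for Tnf and -1.88 ± 0.75 for Il1rn, and 3 had an unadjusted p of 0.05 or less, against 21.6% of all probes. With D12, the highest of all rats for Tnf at -0.86, none had, and the differences were -1.002 for Tnf, -0.99 for Il6, -1.30 for Il1rn and 0.03 for Il1a, the last with its sign turned. Anxa1 and Anxa2, annexins of which the first restrains phospholipase A2 under glucocorticoids, differed by 1.34 ± 0.43 and 1.30 ± 0.42 in Group M vs Group C and by -1.52 ± 0.47 and -1.29 ± 0.45 in Group D vs Group M.

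**Figure D4:**
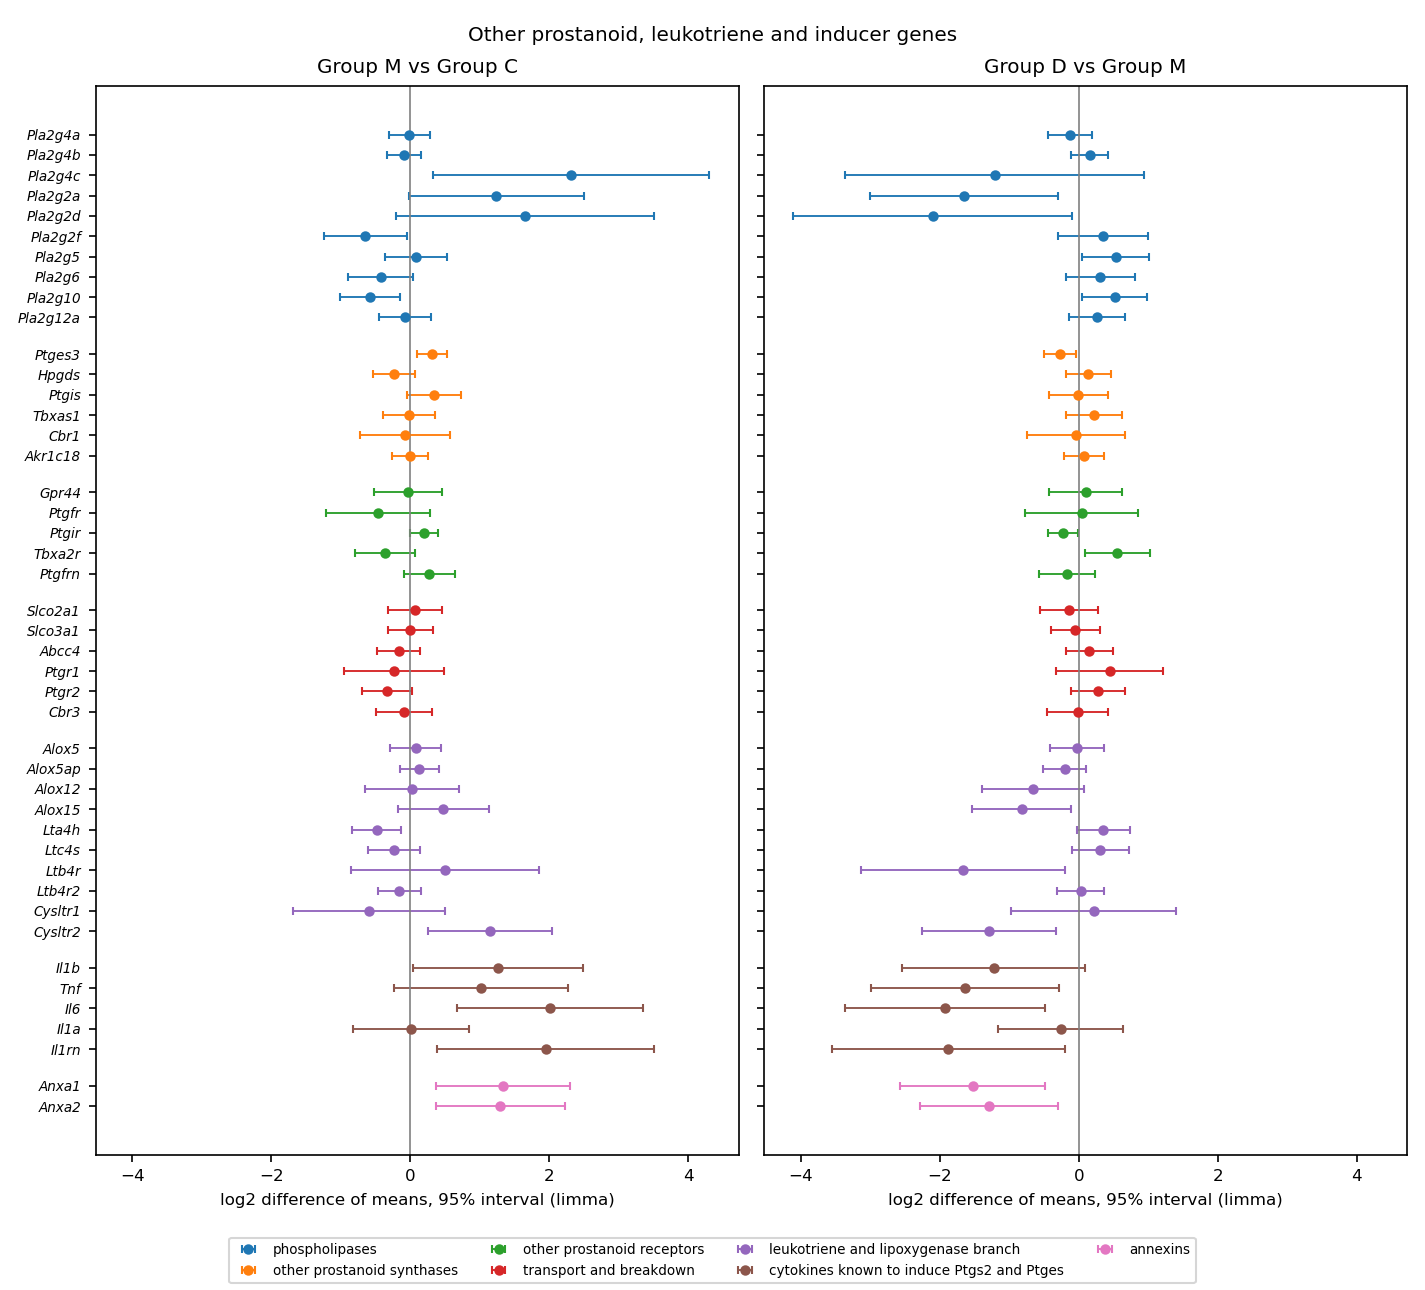
Log2 difference of means with 95% interval (limma, 11 arrays) for the 44 other genes of the pathway, coloured by role, in Group M vs Group C (left) and Group D vs Group M (right). Il6, Il1rn, Anxa1 and Anxa2 lie right of 0 in the left panel and left of 0 in the right panel, and no gene passed the adjusted threshold.

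Marker genes of cell types moved with several of these values in some rats and not in others, and their part in the differences was not tested. In a piece of whole colon, more cells of a type and more RNA per cell cannot be told apart. The mean level of the 4 neutrophil markers on the array was between -6.16 and -5.15 in Group C and between -5.66 and -2.40 in Group M, highest in M7, as Ptgs2, Ptges and Il1b of Group M were. The 4 B cell markers ranged from -5.57 to -0.27 in Group C, with C2 highest, from -5.43 to 0.54 in Group M, with M6 lowest, and stood at 0.99 in D12. The 6 mast cell markers were between -5.48 and -4.59 in Group C and between -3.77 and -2.99 in Group M, without overlap, and between -4.37 and -3.66 in D9 to D11. Glia markers ranged from -4.16 to -3.60 in Group C and from -3.62 to -2.94 in Group M. The 8 enterocyte markers, which belong to the cells that express Hpgd, were between 2.58 and 3.39 in Group C, 2.43 and 3.20 in Group M and 3.15 and 3.67 in D9 to D11, and at 2.43 in D12. Rat D9 did not follow. Relative to the mean of Group C its Ptgs2 was at 1.3, its Ptger2 at 0.29 and its Hpgd at -0.68. Yet its B cell markers, at -6.45, were the lowest of all rats and its enterocyte markers, at 3.67, the highest. M6, with the lowest B cell markers of Group M, had Ptgs2 at 0.95 on the same scale. The markers of a list did not all move together. In Group M vs Group C the difference was above 0 for 4 of 4 neutrophil, 4 of 4 B cell, 5 of 6 mast cell, 3 of 5 glia and 3 of 8 enterocyte markers, against 47.4% of all probes. No marker passed the adjusted threshold in any comparison.

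**Figure D5:**
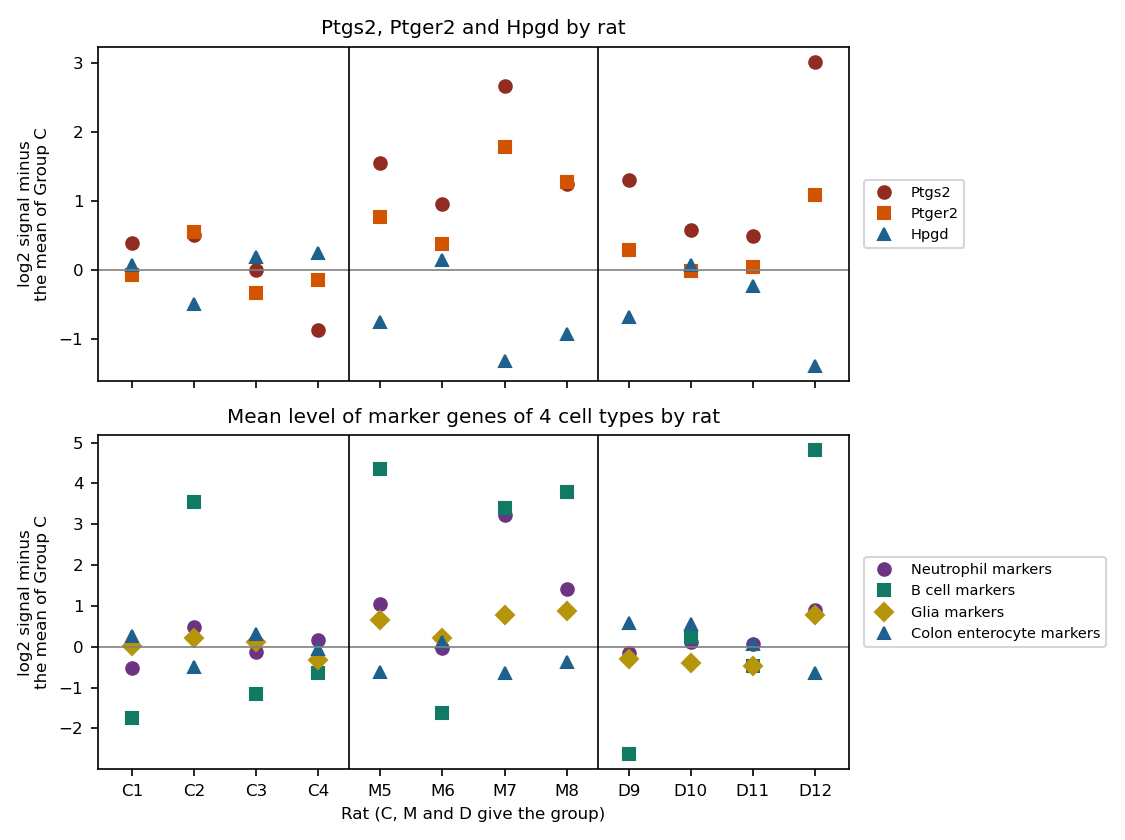
Upper panel: log2 signal of Ptgs2, Ptger2 and Hpgd in each rat minus the mean of Group C. Lower panel: the same for the mean of the marker genes of 4 cell types. In M5, M7, M8 and D12, Ptgs2, Ptger2 and the means of the B cell and neutrophil markers were above the mean of Group C. Hpgd and the mean of the enterocyte markers were below it in these rats. Control rat C2 lay on the same sides, with Ptgs2 at 0.50, Ptger2 at 0.55 and Hpgd at -0.50. M6 stood nearest to the controls of its group for Ptger2, Hpgd and the B cell markers. D9 had Ptgs2 at 1.3 and Hpgd at -0.68, with its B cell and neutrophil markers below the mean of Group C and its enterocyte markers above it.

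The genes whose levels followed a member most closely over the 12 arrays were sought among 12473 named genes by Pearson's r, as a description across rats that share group, slide and tissue makeup. For Ptgs2 they were Eif3i (0.974), Csrnp1 (0.973), Nip7 (0.969), Psme3 (0.961) and Exosc3 (0.960). For Ptger2 they were Hnrnph2 (0.985), Ogfrl1 (0.984), B4galt1 (0.982), Ewsr1 (0.979) and Mapre1 (0.979). For Hpgd they were Fmc1 (0.984), Mut (0.979), Sepp1 (0.973), Fbp2 (0.973) and Myo7b (0.973), the last a myosin of the enterocyte brush border. For Ptgs1, which varied little, the closest were lower: Kctd15 (0.861), Ces1c (0.852), Rgma (0.852), Rras (0.850) and Ifitm2 (0.839).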

How the data were processed

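RNA of 12 colons (1 rat per array) was labelled with 1 colour (Cy3). The authors' scanner files, made with Feature Extraction 10.5.1.1 on a design of build rn4, give the deposited intensity of each spot after background subtraction, on a linear scale. The deposited matrix of log2 values (the authors' normalized data) was an alternative. Here, log2 of the processed signal minus the 75th percentile of the array was taken, control and outlier spots left out, spots of a probe averaged, and of several probes of a gene the brightest taken. The 3 groups were fitted in one model with limma 3.58.1 (R 4.3.3; lmFit and eBayes) on 11 arrays, without D12, as the methods had 11, with Benjamini-Hochberg adjustment over all 30367 probes. A probe counted as well above background on an array where at least 50% of its spots were. The number of arrays limits the precision, and p-values measure the spread between rats. On simulated data the fit recovered 182 (Group M vs Group C), 173 (Group D vs Group M) and 166 (Group D vs Group C) of 200 probes changed by 2 log2 units, more than any member differed, with 9, 12 and 11 false calls. The simulated noise was independent between the probes of a rat, without deviations shared by a whole array. These counts therefore cannot give the error rates of the fit on the real arrays. Members and lists were chosen with earlier results of these data known. Named were all members, pathway genes with an unadjusted p of at most 0.05 or described levels, and the 5 genes most like each of 4 members. Alternatives were other scalings, background models, filters, array weights, probes and left-out rats. Files were read with the data.table package, version 1.17.8, and figures drawn with matplotlib 3.10.9.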

Additional observations from a re-analysis of the deposited data

Results flagged for a closer look

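Within groups of 4 rats, 30 sets of values (10 genes in 3 groups) were searched for a rat far from the others. One stood out, the brighter Ptger3 probe in rat D12 of Group D, at -5.58 with the other 3 rats between -4.55 and -4.51. The gap was 0.965 of the range, above Dixon's limit of 0.829, and chance alone marks about 1 in 20 groups. The dimmer Ptger3 probe was not searched. It was at -6.71 in D12 and between -5.71 and -5.16 in D9 to D11, which lay farther apart than on the brighter probe. Rat D12, which the main comparisons do not use, was above all Group C rats for Ptgs2 (-3.45), Ptges (-1.38) and Ptger2 (-3.72).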

How the results depend on the processing

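Counts of called genes and the median difference of the 10 genes were recomputed under 26 other settings. Of 777 values of single genes, 747 kept direction and side of the threshold or moved less than the spread between rats. Another 26 came to pass the threshold, 4 moved and none reversed as a called value, though 44 uncalled differences changed sign. Settings that changed only the rule for a call reused the main fit, so their differences could not change. The second probe altered only Ptgs1 and Ptger3. The 747 include these values fixed in advance. With array quality weights, 4 members (Ptgs2, Ptges2, Hpgd and Ptger2) and 14 of 44 pathway genes passed for M against C, where 28% of all probes did, and 3 and 12 for D against M, where 22.6% did. By the criterion of the methods 2 members and 1 pathway gene passed for M against C (2.33% of all probes) and 1 pathway gene for D against M (2.65%). At an unadjusted p these counts were 3 and 11 for M against C (22.7% of all probes), 3 and 15 for D against M (21.6%), and 1 pathway gene for D against C (5.98%). The cause was not tested. Without rats C2 and M6, a choice made after seeing the data and of the 2 rats nearest the other group, so that the difference widens by construction, they were 4 and 15 (21.1% of all probes), and 3 and 12 (17.5%), and the median difference was -0.14 for M against C and -0.055 for D against C. Leaving out 1 rat at a time gave 0 to 3 members, 0 to 12 pathway genes and a median from -0.125 to 0.003 for M against C, 0 to 1, 0 to 10 and a median from -0.019 to 0.057 for D against M, and a median from -0.055 to 0.052 for D against C. Rat M6 set the upper counts: without it Ptgs2 (1.82, adjusted p 0.0234 by limma), Ptger2 (1.27, 0.0175) and Hpgd (-1.005, 0.0247) passed for M against C, as did 16.2% of all probes, and Ptger2 (-1.18, 0.0269) for D against M, as did 15%. The median difference in Group D vs Group M was 0.02, but -0.20 with all 12 arrays, 0.11 after quantile normalization, 0.10 in the authors' matrix and -0.11 with the second probe of Ptgs1 and Ptger3. With all 12 arrays 0 members passed, and Ptgs2 no longer met the criterion of the methods. Ptgds had no value under the filter on dim probes. Rats of the same number did not deviate together (r from -0.56 to 0.13), so the numbers do not pair them, and with the replicate block the median differences were -0.01, 0.07 and 0.08, with 0 members called.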
